A study of Mus musculus with 45 samples.

Results

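Expression of 10 genes of vitamin D, calcium and phosphate handling was followed in the kidney, liver and brain of mice fed a high-cholesterol diet. The genes were chosen by name (Cyp24a1, Cyp27b1, Cyp2r1, Vdr, Kl, Calb1, S100g, Trpv5, Slc34a1 and Slc34a3), and each had 1 row among the 22080 genes of the deposited table. Cyp24a1 was known to change in kidney when the set was drawn up, so its kidney values under the diets are a description and no p is given for them. The other 9 genes were tested in kidney, and all 10 in liver and brain.

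The kidney is the main site where circulating calcidiol is turned into calcitriol, the active vitamin D hormone, and where calcium and phosphate are taken back from the filtrate. Cyp2r1, best known from liver, makes calcidiol. Cyp27b1 makes calcitriol, Cyp24a1 inactivates calcidiol and calcitriol, and the receptor Vdr is known to raise Cyp24a1 transcription when calcitriol binds it. Kl is the co-receptor through which the bone hormone FGF23 acts on the tubule. Trpv5 admits calcium into distal tubule cells, Calb1 and S100g bind it inside the cell, and Slc34a1 and Slc34a3 carry phosphate across the brush border of the proximal tubule.

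The animals were male C57BL/6 mice aged 7 weeks at the start, with 8 mice per diet, killed at day 43 after a period without food and water. Control mice received a standard diet, HCD mice the high-cholesterol diet with 0.5% cholesterol, and the other 3 groups HCD together with a hydroalcoholic extract of the mushroom Ganoderma lucidum at 1% (HCD+Gl-1 or HCD+Gl-2) or with simvastatin, an inhibitor of cholesterol synthesis, at 0.03 g per 100 g (HCD+Sim). Gl-1 and Gl-2 came from mushrooms grown without and with acetylsalicylic acid in the substrate. No group received simvastatin or an extract on the standard diet, so their values describe them only on top of cholesterol. Each tissue and diet had 3 Affymetrix Mouse Gene ST arrays. By the study's methods, pools A and B held RNA of different mice and pool C was a mix of both. The 3 arrays then stand for 2 separate pools, and p-values measure the spread between such arrays. Pool C lay between pools A and B for 28.3% of all genes on average, from 20.4% in brain HCD+Gl-2 to 35.5% in kidney HCD. The signals therefore do not themselves show that mix, and its make-up was not tested.

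All values are log2 signals, on which a difference of 1 is a doubling. Arrays of a group correlated over all genes between 0.996 and 0.997 in kidney, between 0.989 and 0.995 in liver and between 0.985 and 0.997 in brain. Each gene was measured by a single probe set, so levels are compared between tissues and diets but not between genes. Tissue RNA cannot tell fewer cells of a type from less RNA per cell. The kidney arrays carried the segment markers: the 17 of 17 measured proximal tubule genes averaged between 12.07 and 12.18 on the 15 arrays, and 12 of 12 adrenal genes averaged between 5.45 and 5.64. The pool C arrays of brain Control and brain HCD+Gl-2 stood apart in cerebellar genes. The Calb1 differences between HCD and Control in brain and between kidney and brain are given with and without such arrays. So are the counts of genes that differ between brain and the other tissues. Most other brain differences, those of Cyp24a1 among them, are given only with all arrays.

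Cyp24a1 was the gene of the set with the widest range in kidney. Its log2 signal (probe set 10490080) was 10.55, 10.63 and 10.48 in pools A, B and C of Control. Under HCD it was 9.57, 9.80 and 9.68, and all 3 arrays lay below every Control array. Under HCD+Gl-1 it was 10.92, 11.05 and 11.09, above every other kidney array. HCD+Gl-2 gave 10.22, 10.13 and 9.97, between HCD and Control without touching either. HCD+Sim gave 10.55, 10.63 and 10.46, level with Control, with overlapping arrays. The order of the means was therefore HCD (9.69 ± 0.11, SD, n = 3 arrays), HCD+Gl-2 (10.10 ± 0.13), HCD+Sim (10.55 ± 0.088), Control (10.55 ± 0.078) and HCD+Gl-1 (11.02 ± 0.086), in which only HCD+Sim and Control were neighbours that overlapped.

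**Figure D1:**
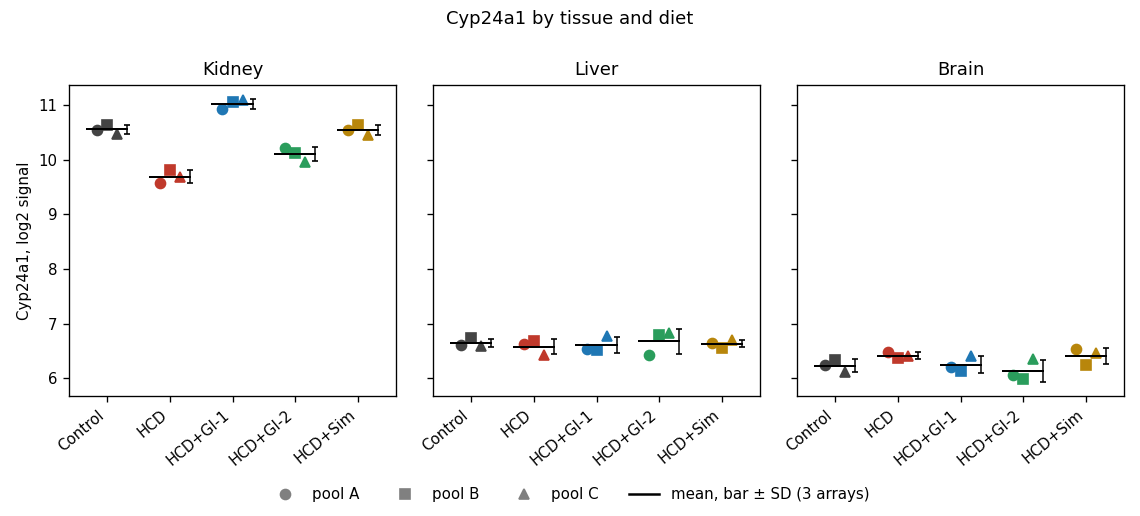
Cyp24a1 log2 signal (y axis) on each array of kidney, liver and brain by diet (x axis); marker shapes are pools A, B and C, lines are group means and bars ± SD of 3 arrays. In kidney the group means run from 9.69 in HCD to 11.02 in HCD+Gl-1, while the liver and brain arrays stay between 5.98 and 6.83.

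In linear terms the kidney mean of Cyp24a1 was 1.82-fold lower in HCD than in Control, a log2 difference of -0.87. Against HCD it was 2.52-fold higher with Gl-1 (log2 difference 1.33), 1.81-fold higher with simvastatin (0.86) and 1.33-fold higher with Gl-2 (0.42). The extracts differed from each other, with Gl-2 1.89-fold below Gl-1 (log2 difference -0.92). Set against Control instead of HCD, Gl-1 stood 1.38-fold higher (0.47), Gl-2 1.36-fold lower (-0.45) and simvastatin level with it (-0.0061). The gaps between the nearest arrays of neighbouring groups were 0.16 between HCD and HCD+Gl-2, 0.24 between HCD+Gl-2 and HCD+Sim, 0.26 between HCD+Gl-2 and Control and 0.29 between these last groups and HCD+Gl-1. The array spread within a group was 0.10 (pooled SD).

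Markers of nephron segments and other cell types were read on the same arrays. The summed signal of the 17 proximal tubule markers, the segment best known for Cyp24a1, lay between 16.28 and 16.38 on the 15 kidney arrays, a range of 0.10 (log2 of the sum), with 16.28 to 16.33 under HCD and 16.32 to 16.37 under HCD+Gl-1. For 10 of 10 loop of Henle and distal tubule markers it was 14.69 to 14.71 under HCD, 14.78 to 14.82 under HCD+Gl-1, 14.77 to 14.80 under HCD+Gl-2, 14.72 to 14.78 under HCD+Sim and 14.75 to 14.77 in Control, so that HCD was also lowest and HCD+Gl-1 highest here, on a range of 0.13 as against 1.52 for Cyp24a1. The 7 of 7 kidney injury markers, among them Havcr1 and Lcn2, summed to 11.76 to 11.81 under HCD, 11.86 to 12.05 under HCD+Gl-1, 11.89 to 12.02 under HCD+Gl-2, 11.67 to 11.76 under HCD+Sim and 11.93 to 12.01 in Control. The 10 of 10 hepatocyte markers, several of which the kidney also makes, had the widest range, 0.46: they summed to 13.24 to 13.34 under HCD, 13.25 to 13.46 under HCD+Gl-1, 13.50 to 13.70 under HCD+Gl-2, 13.44 to 13.53 under HCD+Sim and 13.42 to 13.53 in Control, so that HCD+Gl-2 was highest and HCD+Gl-1 overlapped HCD. The 7 of 7 glomerular markers ranged over 0.35, lowest on an HCD+Gl-1 array (10.90) and highest on an HCD+Sim array (11.26), and the 7 of 7 adipocyte markers over 0.29, from 9.39 under HCD+Sim to 9.68 under HCD+Gl-2. Over the 15 arrays the hepatocyte range was 0.46 and that of Cyp24a1 was 1.52. Between HCD+Gl-2 and HCD the Cyp24a1 means differed by 0.42, and the hepatocyte sums of these groups did not overlap. Adrenal markers, from the gland next to the kidney, summed to between 9.27 and 9.47 in all 5 groups. The part of these markers in the Cyp24a1 values was not tested.

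Outside the kidney the Cyp24a1 signal was low and no difference between diets passed. The liver arrays ran from 6.42 through a median of 6.62 to 6.83, and the brain arrays from 5.98 through 6.34 to 6.53. The liver means of the 5 diets spanned 0.099, less than the 0.14 spread between arrays of a group. In brain the HCD arrays were 6.48, 6.36 and 6.40 and the Control arrays 6.23, 6.34 and 6.11, a difference of 0.19 ± 0.10 (SE, limma adjusted p = 0.84). The HCD+Gl-2 arrays of brain, 6.06, 5.98 and 6.35, all lay below those of HCD, by -0.28 ± 0.10 in the means (adjusted p = 0.54). The brain means spanned 0.28, against an array spread of 0.14. The steps from HCD were 1.33 (Gl-1), 0.42 (Gl-2) and 0.86 (simvastatin) in kidney as given above, 0.032, 0.099 and 0.056 in liver, and -0.16, -0.28 and -0.00077 in brain. No detection call comes with the files, so these low signals cannot be told from background.

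Cyp27b1, the enzyme that makes calcitriol, had the largest spread between kidney arrays of a group (pooled SD 0.21) and did not follow Cyp24a1. Its log2 signal (probe set 10366803) was 7.44, 7.73 and 7.43 in Control, 7.15, 7.15 and 6.96 under HCD, 7.08, 6.86 and 7.20 under HCD+Gl-1 and 7.22, 6.88 and 7.23 under HCD+Gl-2. HCD+Sim held a wide range of 7.54, 7.00 and 7.63. All arrays of HCD and of both extract groups lay below the 3 Control arrays, and the simvastatin arrays fell on both sides. The difference between HCD and Control was -0.45 ± 0.14 (SE, 95% interval -0.73 to -0.16) with an unadjusted p of 0.0029 in limma, which became 0.44 after Benjamini-Hochberg adjustment over 22080 genes. Against HCD, Cyp27b1 differed by -0.041 with Gl-1, 0.023 with Gl-2 and 0.30 with simvastatin, none past an adjusted p of 0.05. Cyp27b1 and Cyp24a1 had a Pearson r of 0.13 over the 15 kidney arrays, given as a description.

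Cyp2r1, which makes calcidiol, had a low signal in kidney and was highest in Control. Its median over the 15 kidney arrays, 5.63, lay below the array medians of 6.76 to 6.92, where a signal cannot be told from background. The Control arrays were 5.91, 5.75 and 6.01, the HCD arrays 5.63, 5.73 and 5.62, the HCD+Gl-1 arrays 5.58, 5.72 and 5.74, the HCD+Gl-2 arrays 5.53, 5.53 and 5.42 and the HCD+Sim arrays 5.45, 5.64 and 5.48. No array of the 4 cholesterol-fed groups reached the lowest Control array. Gl-2 against Control was the comparison with the lowest adjusted p of the 9 tested genes in kidney, at a difference of -0.39 ± 0.11 (SE, limma adjusted p = 0.073). It passed at 0.015 when the kidney arrays were fitted alone.

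Vdr, the receptor, differed little between groups. Its Control arrays were 11.53, 11.54 and 11.41, and its HCD arrays 11.41, 11.30 and 11.30. HCD+Gl-1 gave 11.51, 11.34 and 11.67, HCD+Gl-2 11.27, 11.25 and 11.38, and HCD+Sim 11.43, 11.40 and 11.51. The means had HCD+Gl-2 and HCD lowest and HCD+Gl-1 highest, but they spanned only 0.21 against an array spread of 0.097, and the lowest adjusted p over the 10 comparisons was 0.60.

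Kl, the FGF23 co-receptor, varied least between diets. Its 5 group means lay within 0.046 of each other, at 11.28 in Control, 11.30 under HCD, 11.31 under HCD+Gl-1, 11.27 under HCD+Gl-2 and 11.32 under HCD+Sim, less than the array spread of 0.070. The 95% intervals of its 10 differences lay between -0.37 and 0.36.

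Calb1 had the widest spread of group means among the calcium genes in kidney (0.45). Its kidney arrays were 10.75, 10.77 and 10.80 in Control, 10.58, 10.56 and 10.48 under HCD, 10.76, 10.75 and 10.69 under HCD+Gl-1, 10.63, 10.71 and 10.57 under HCD+Gl-2 and 10.28, 10.49 and 10.21 under HCD+Sim. HCD lay below Control and HCD+Gl-1 lay above HCD on every array, and simvastatin gave the lowest mean, 10.33. The difference between HCD+Sim and Control was -0.45 ± 0.19 (SE, adjusted p = 0.73) and that between HCD and Control was -0.23, and none of its 10 comparisons passed in the fit of all tissues. This SE pools the array spread of the 3 tissues, which for Calb1 was 0.079 in kidney, 0.29 in liver and 0.33 in brain. Fitted on the kidney arrays alone, the SE was 0.068, and Calb1 passed as lower under HCD+Sim than in Control (adjusted p = 0.013). In that fit it was also higher under HCD+Gl-1 than under HCD+Sim by 0.41 (adjusted p = 0.026) and higher under HCD+Gl-2 than under HCD+Sim by 0.31 (adjusted p = 0.034), while HCD against Control did not pass (adjusted p = 0.28). Of all genes, 0.217%, 0.163% and 1.61% passed these 3 comparisons in that fit.

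Trpv5, the apical calcium channel, lay between 7.91 and 8.22 on the 15 kidney arrays, with its highest mean in Control (8.19) and its lowest under HCD+Gl-2 (8.02). Its HCD and HCD+Gl-2 arrays all lay below the 3 Control arrays. S100g, the second calcium-binding protein, lay between 11.64 and 11.94, with means from 11.79 to 11.87. Its group means spanned 0.077, less than its array spread of 0.089. Neither gene passed in any comparison (lowest adjusted p 0.76 for Trpv5 and 0.93 for S100g).

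The phosphate carriers of the brush border were steady. Slc34a1 lay between 13.29 and 13.44 on all 15 arrays, with means of 13.40 in Control, 13.34 under HCD, 13.40 under HCD+Gl-1, 13.33 under HCD+Gl-2 and 13.40 under HCD+Sim. The 95% intervals of its 10 differences lay between -0.26 and 0.23. Slc34a3 lay between 8.16 and 8.46, with means from 8.27 under HCD to 8.37 under HCD+Gl-2, and the intervals of its differences lay between -0.19 and 0.28. The intervals of both genes pool the array spread of the 3 tissues. For Slc34a1 it was 0.031 in kidney, 0.13 in liver and 0.13 in brain, and for Slc34a3 0.076, 0.14 and 0.11. Fitted on the kidney arrays alone, the SEs were 0.048 and 0.067.

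**Figure D2:**
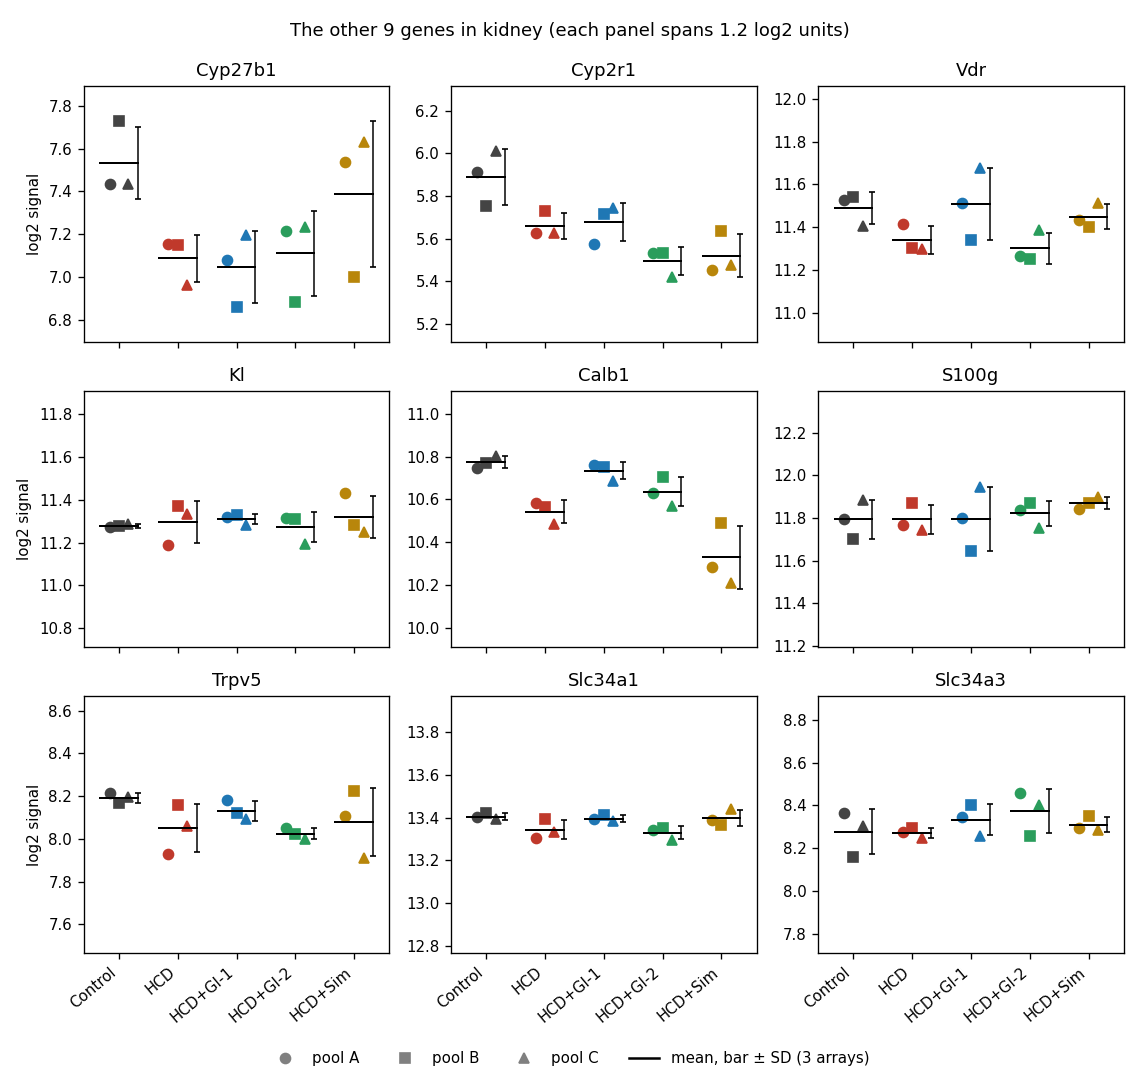
Log2 signal (y axis) of the 9 genes other than Cyp24a1 on each kidney array by diet (x axis), every panel spanning 1.2 log2 units; marker shapes are pools A, B and C, lines are means and bars ± SD of 3 arrays. Calb1 is lowest under HCD+Sim (mean 10.33) and Cyp27b1 and Cyp2r1 are highest in Control (means 7.53 and 5.89), while Kl and Slc34a1 stay nearly level.

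Of the 90 tests of the other 9 genes over the 10 pairs of diets in kidney, 0 passed an adjusted p of 0.05 in limma and 11 had an unadjusted p under 0.05. With the kidney arrays fitted alone 4 passed, the Cyp2r1 comparison and the 3 Calb1 comparisons given above. Over all genes the adjusted threshold was passed by 0.131% for HCD against Control, 0.267% for HCD+Gl-1 against HCD, 0.996% for HCD+Gl-2 against HCD and 0.222% for HCD+Sim against HCD. Against Control it was passed by 0.0634% with Gl-1, 0.874% with Gl-2 and 0.0906% with simvastatin. It was passed by 0.394% for HCD+Gl-2 against HCD+Gl-1, 0.0996% for HCD+Gl-1 against HCD+Sim and 0.675% for HCD+Gl-2 against HCD+Sim.

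The definition of differential expression in the study's methods also asks for a log2 fold change over 0.7. None of the 9 tested genes met it in kidney. Past both thresholds lay 0.0408% of all genes for HCD against Control, 0.131% for HCD+Gl-1 against HCD, 0.335% for HCD+Gl-2 against HCD, 0.14% for HCD+Sim against HCD and 0.181% for HCD+Gl-2 against HCD+Gl-1. The shares are over all genes, Cyp24a1 included, and since its kidney values chose it, no call is given for it in kidney.

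Several of the 9 genes had groups that did not overlap although they failed the test. Between HCD and Control 4 of the 9 lay apart (Cyp27b1, Cyp2r1, Calb1 and Trpv5), all lower under HCD, beside 13.2% of all genes. Between HCD+Gl-2 and Control 6 lay apart, all lower under HCD+Gl-2 (the same 4, Vdr and Slc34a1), beside 18.3%. Fewer lay apart from Control in the other groups, all lower than Control. These were 2 of the 9 for HCD+Gl-1 (Cyp27b1 and Cyp2r1), beside 11.9%, and 2 for HCD+Sim (Cyp2r1 and Calb1), beside 15.3%. All these counts rest on the same 3 Control arrays. Against HCD, Calb1 lay apart with Gl-1 (1 of 9, beside 13.8%), Cyp2r1 with Gl-2 (1 of 9, beside 20.4%) and none of the 9 with simvastatin (16.7%). An exact two-sided permutation test of 3 arrays against 3 cannot go below a p of 0.1. The median difference of the 9 genes was -0.14 for HCD against Control and -0.14 for HCD+Gl-2 against Control, where the medians of all genes were -0.0069 and 0.0037. It was -0.0088 for HCD+Gl-1 and -0.043 for HCD+Sim against Control, where those of all genes were 0.0055 and -0.0053.

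The rest of the pathway was examined in 4 lists of other genes: vitamin D synthesis and transport, the axis of FGF23, klotho and parathyroid hormone, calcium and magnesium transport, and phosphate transport. Of 70 such genes 69 were measured. In kidney 0 of the 69 passed for HCD against Control, HCD+Gl-1 against HCD or HCD+Sim against HCD (limma). With Gl-2 against HCD 1 gene passed, Slc20a1. An unadjusted p under 0.05 was reached by 3, 3, 4 and 9 of them for HCD against Control and for Gl-1, simvastatin and Gl-2 against HCD, which is 4.35%, 4.35%, 5.8% and 13% of the 69 beside 4.47%, 4%, 6.19% and 8.97% of all genes. The median change of the 69 genes was -0.023 for HCD against Control, 0.044 for HCD+Gl-1 against HCD, 0.046 for HCD+Gl-2 against HCD and 0.035 for HCD+Sim against HCD, where the medians of all genes were -0.0069, 0.011, 0.011 and 0.0034.

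The list medians hid few single changes. In the vitamin D list, 14 genes, the largest shift was that of Gc, the plasma vitamin D carrier, with -0.35 for HCD against Control and 0.48 for HCD+Sim against HCD. In the FGF23 and parathyroid hormone list, 21 genes, the kinase gene Sgk1 had -0.31 for HCD against Control and 0.47 for HCD+Gl-2 against HCD. In the calcium and magnesium list, 28 genes, the potassium channel gene Kcnj1 had 0.30 for HCD+Gl-1 against HCD, and the sodium-calcium exchanger gene Slc8a1 had -0.39 for HCD+Sim against HCD. None of these passed. In the phosphate list, 6 genes, Slc34a2 had -0.25 for HCD against Control and 0.23 for HCD+Gl-1 against HCD, and Slc20a1 stood out with Gl-2.

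Slc20a1 codes for a sodium-phosphate co-transporter found in most tissues. Its kidney arrays (probe set 10475990) were 8.11, 8.11 and 8.01 in Control, 7.97, 8.03 and 8.12 under HCD and 8.10, 8.20 and 8.09 under HCD+Gl-1. With Gl-2 they were 9.02, 8.73 and 8.96, and with simvastatin 8.27, 8.30 and 8.32. The 3 HCD+Gl-2 arrays lay above the other 12, and the 3 HCD+Sim arrays lay above the remaining 9. The gene rose in HCD+Gl-2 by 0.86 ± 0.077 (SE) over HCD, with a limma adjusted p of 5.3e-10, and by 0.83 over Control (adjusted p = 2.2e-09, 0.217% of all genes differentially expressed). It was also 0.77 above HCD+Gl-1 (adjusted p = 8.9e-09) and 0.61 above HCD+Sim (adjusted p = 2.2e-06). The simvastatin rise of 0.25 over HCD did not pass (adjusted p = 0.33). Leaving out any 1 kidney array kept the Gl-2 difference from HCD between 0.80 and 0.95. The kidney order for Slc20a1, with HCD+Gl-2 highest, was unlike that of Cyp24a1, with HCD+Gl-1 highest.

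**Figure D3:**
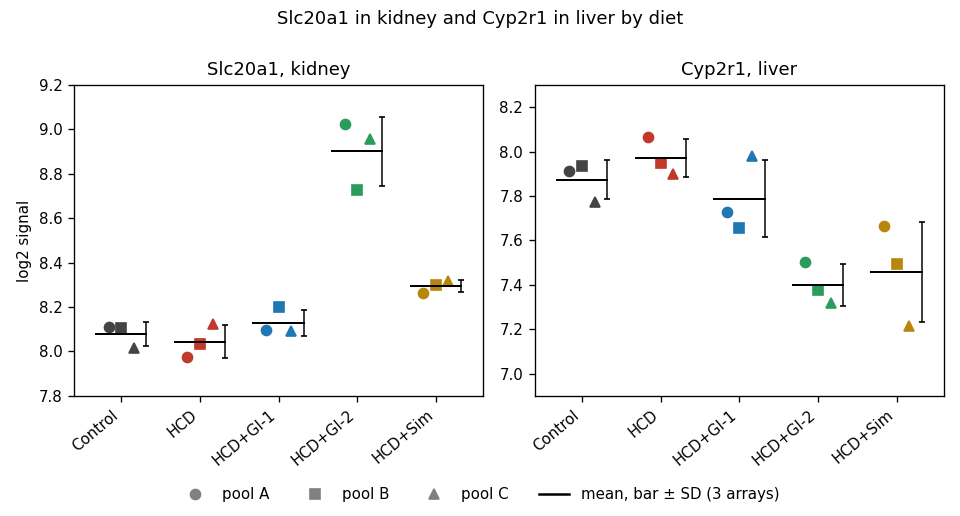
Log2 signal (y axis) by diet (x axis) of Slc20a1 on the 15 kidney arrays and of Cyp2r1 on the 15 liver arrays; marker shapes are pools A, B and C, lines are means and bars ± SD of 3 arrays, and both panels span 1.4 log2 units. Slc20a1 is highest in the 3 HCD+Gl-2 arrays (8.73 to 9.02), and liver Cyp2r1 is lower in HCD+Gl-2 and HCD+Sim (means 7.40 and 7.46) than in HCD (7.97).

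Genes whose kidney pattern was most like that of Cyp24a1 were ranked by Pearson r over the 15 kidney arrays, among 22079 others. Arrays of a group share their diet, and by the study's methods pool C mixes pools A and B. For this reason r is given as a description. The 5 highest were Gpam, an acyltransferase gene of glycerolipid synthesis (r = 0.89), the mitochondrial carrier gene Slc25a30 (0.86), the lysosomal iduronidase gene Idua (0.85), Gm10754 (0.83) and Hirip3 (0.82). All 5 moved over a much smaller range than Cyp24a1: the group means of Gpam ran from 9.72 under HCD to 9.94 under HCD+Gl-1, and those of Slc25a30 from 9.46 under HCD+Gl-2 to 9.98 under HCD+Gl-1. Once the group means were removed, r was 0.68 for Hirip3, 0.36 for Gpam, 0.065 for Gm10754, -0.21 for Slc25a30 and -0.28 for Idua. The 5 lowest were Igkv8-30 (-0.81), Hist2h2aa1 (-0.81), the proteasome gene Psma7 (-0.81), Olfr835 (-0.80) and Cd47 (-0.80). Igkv8-30, Hist2h2aa1 and Olfr835 belong to families with near-identical copies and are uncertain. The group means of Gm10754 (2.65 to 2.87), Hirip3 (5.81 to 6.02), Igkv8-30 (4.17 to 4.85) and Olfr835 (4.28 to 4.79) were low. They lay below the array medians of 6.76 to 6.92, where a signal cannot be told from background. Of the set itself, Slc34a1 (0.66) and Vdr (0.59) had the highest r with Cyp24a1 and S100g the lowest (0.064). With the group means removed, r was 0.39 for Slc34a1 and -0.23 for Vdr, and Trpv5 (0.55) and Kl (0.54) were highest.

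In liver the gene of the set that changed was Cyp2r1, which is known to be active there. Its arrays were 7.91, 7.94 and 7.77 in Control and 8.06, 7.95 and 7.90 under HCD. With Gl-1 they were 7.73, 7.65 and 7.98, with Gl-2 7.50, 7.38 and 7.32 and with simvastatin 7.66, 7.49 and 7.21. The arrays of HCD+Gl-2 and of HCD+Sim all lay below those of HCD and Control, while those of HCD+Gl-1 overlapped HCD. Cyp2r1 fell by 0.57 ± 0.11 (SE) with Gl-2 (limma adjusted p = 0.0016) and by 0.51 ± 0.11 with simvastatin (adjusted p = 0.0086) relative to HCD. The difference with Gl-1 was -0.18 and did not pass (adjusted p = 0.42), and that of HCD from Control was 0.098. Neither fall reached the fold change threshold of 0.7. Fitted on the liver arrays alone, the adjusted p rose to 0.052 for Gl-2 and 0.14 for simvastatin. Without pool C of HCD+Sim the simvastatin difference was -0.39 (adjusted p = 0.11), and without pool A of HCD it was -0.47 (adjusted p = 0.069).

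These were the 2 of 40 liver tests of the set that passed. The share of all genes past the adjusted threshold in liver was 1.34% for HCD against Control, 2.48% with Gl-1, 1.7% with Gl-2 and 1.1% with simvastatin against HCD. With the fold change threshold the shares were 0.245%, 0.163%, 0.303% and 0.258%, and no member was called. Of the 69 other pathway genes, 2 passed in liver for HCD against Control, 4 for Gl-1, 4 for Gl-2 and 1 for simvastatin against HCD. Dhcr7, whose enzyme turns the precursor of vitamin D into cholesterol, fell relative to HCD by 0.45 with Gl-1 (adjusted p = 0.047), by 0.62 with Gl-2 (adjusted p = 0.0033) and by 0.64 with simvastatin (adjusted p = 0.0040). Slc20a1 rose in liver by 0.30 in HCD over Control (adjusted p = 0.038) and by a further 0.31 with Gl-2 over HCD (adjusted p = 0.021). Cyp3a11, a broad cytochrome that can also break down calcitriol, rose by 0.61 in HCD over Control (adjusted p = 0.0028). The others were smaller: relative to HCD, Pdia3 rose by 0.37, Fgfr2 by 0.31 and Trpm7 by 0.28 with Gl-1, and with Gl-2 Klk1 fell by 0.38 and Dab2 fell by 0.29 (adjusted p between 0.014 and 0.047).

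In brain 0 of the 40 tests of the set passed (limma; 3 had an unadjusted p under 0.05, lowest adjusted p 0.52). The share of all genes past the adjusted threshold was 0.0543% for HCD against Control and, against HCD, 0.0181% with Gl-1, 0.0362% with Gl-2 and 0.0181% with simvastatin. With the fold change threshold it was 0.0317%, 0.00906%, 0.0226% and 0%. Cyp2r1 went the other way from liver with Gl-2: its brain arrays were 4.93, 4.85 and 5.07 under HCD+Gl-2 and 4.71, 4.57 and 4.65 under HCD.

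Calb1, which marks cerebellar Purkinje cells in brain, had the widest brain range of the set. Its arrays were 10.72, 11.00 and 9.76 in Control, 10.09, 9.86 and 10.49 under HCD, 10.12, 10.03 and 10.09 under HCD+Gl-1, 9.92, 9.91 and 9.79 under HCD+Gl-2 and 10.11, 9.96 and 10.21 under HCD+Sim. The Control array of pool C lay lowest of all 15, although by the study's methods it mixes the pools whose arrays lay highest. The 9 cerebellar markers other than Calb1, among them the granule cell gene Gabra6 and the Purkinje gene Pcp2, averaged 10.11 and 10.68 in Control pools A and B and 6.93 in pool C. Gabra6 alone was 10.23, 11.01 and 4.71. In HCD+Gl-2 the same average was 8.21, 8.66 and 7.16. In both groups all 9 markers lay lower in pool C than in A and B. The array with the lowest Calb1 was also the lowest for these markers in 4 of the 5 diets.

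**Figure D4:**
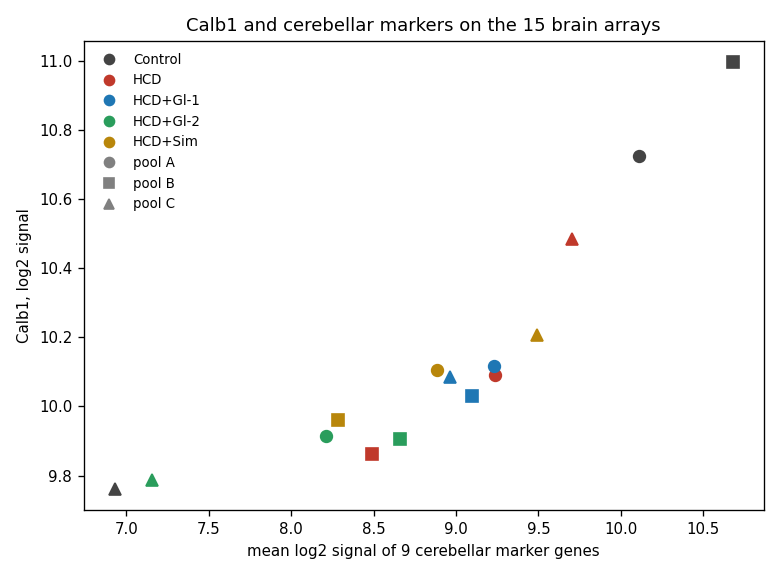
Calb1 log2 signal (y axis) against the mean log2 signal of 9 cerebellar marker genes (x axis) on the 15 brain arrays, coloured by diet, with marker shapes for pools A, B and C. Pool C of Control and pool C of HCD+Gl-2 lie lowest on both axes (marker means 6.93 and 7.16), and pools A and B of Control lie highest.

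With all arrays the brain difference of Calb1 between HCD and Control was -0.35 (adjusted p = 0.84). Without pool C of Control it was -0.71 ± 0.17 (SE, adjusted p = 0.0086), and Calb1 was then called. In that fit all 9 cerebellar markers were lower under HCD too, 8 of them past the adjusted threshold, with a median change of -1.43 and a range from -1.59 to -0.66, and 4.03% of all genes passed. Their part in the Calb1 difference was not tested.

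On the control diet the tissues differed far more than the diets did. All 10 genes were differentially expressed between kidney and liver, beside 16.8% of all genes, 9 of them higher in kidney. The files hold no detection calls. The liver signals of all but Cyp2r1, the brain signals of all but Calb1 and Kl, and the kidney signal of Cyp2r1 were low. In their medians over 15 arrays they lay below the array medians of 6.76 to 6.92, where they cannot be told from background. The values that follow are therefore differences in signal and not measured ratios of RNA. The kidney signal exceeded the liver signal by 6.99 for Slc34a1, 6.04 for Calb1, 5.96 for Vdr, 5.30 for S100g, 5.28 for Kl and 3.91 for Cyp24a1. The smaller differences were 2.29 for Trpv5, 1.87 for Cyp27b1 and 1.53 for Slc34a3 (all limma, highest adjusted p of these 9 genes 1.1e-14). Cyp2r1 was the exception with a difference of -1.98, lower in kidney than in liver. Over all diets its liver arrays lay between 7.21 and 8.06 and its kidney arrays between 5.42 and 6.01.

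Between kidney and brain 9 of the 10 genes were differentially expressed, all higher in kidney, beside 30% of all genes. The difference in signal, with the same limit, was 7.25 for Slc34a1, 6.02 for Vdr, 5.71 for S100g, 4.32 for Cyp24a1, 3.92 for Kl, 2.73 for Trpv5, 1.81 for Cyp27b1, 1.68 for Slc34a3 and 1.29 for Cyp2r1. Calb1 did not pass, at a difference of 0.28 (95% interval -0.11 to 0.67, adjusted p = 0.22), and without pool C of brain Control the difference was -0.087 (adjusted p = 0.70). Without pool B of brain Control it was 0.53 and passed (adjusted p = 0.020). Between liver and brain 3 of 10 were differentially expressed, beside 32.7% of all genes: Cyp2r1 was 3.27 higher in liver, and Calb1 and Kl, the latter known from the choroid plexus, were lower in liver by differences of -5.76 and -1.36. These 2 counts were the same without the pool C arrays of brain Control and HCD+Gl-2.

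**Figure D5:**
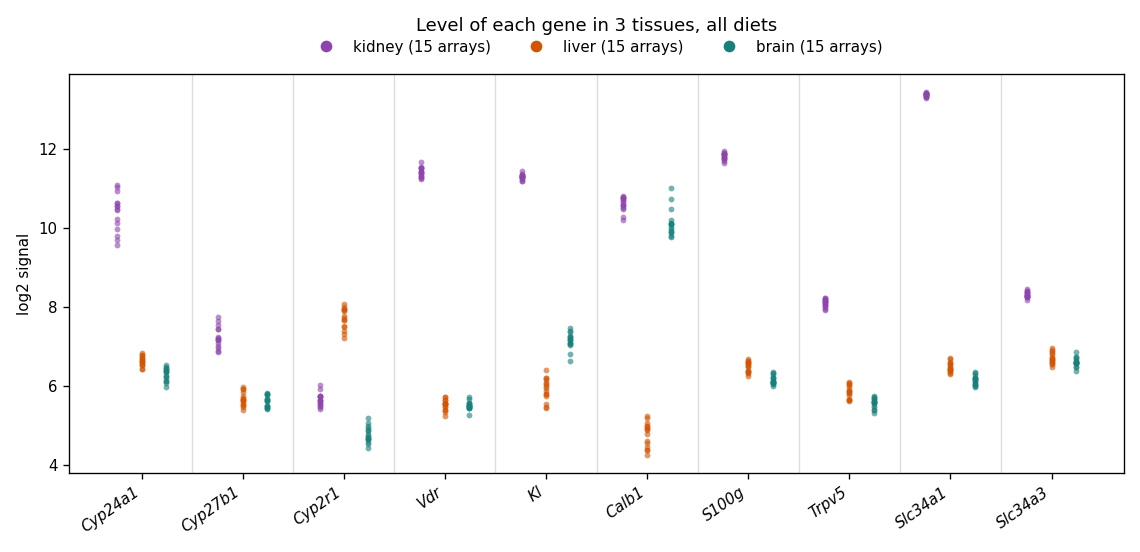
Log2 signal (y axis) of the 10 genes (x axis) on the 15 kidney, 15 liver and 15 brain arrays over all diets, 1 point per array. Kidney lies above liver for every gene but Cyp2r1, Calb1 is similar in kidney and brain, and Cyp24a1 has the longest kidney range (9.57 to 11.09); heights of different genes are not comparable.

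Whether the other 9 genes responded differently in kidney than in liver or brain was tested as the difference between the 2 responses, for HCD against Control and for each treatment against HCD. Of these 72 tests 0 passed (limma; 8 had an unadjusted p under 0.05, lowest adjusted p 0.29). The lowest belonged to Cyp2r1 with Gl-2, whose response was -0.16 in kidney, -0.57 in liver and 0.30 in brain. The kidney response differed from the liver response by 0.41 (95% interval 0.097 to 0.72, adjusted p = 0.34), and from the brain response by -0.47 (95% interval -0.78 to -0.15, adjusted p = 0.29).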

How the data were processed

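The data are 45 arrays (Affymetrix Mouse Gene ST, version 1.0), 15 per tissue. Per the study's methods, the authors used RMA background correction and quantile normalization (oligo), then ComBat to lessen a batch effect (the batches are not given in the sources used here), and where a gene had several probe sets they kept the one that varied most by interquartile range. The values they deposited are log2 signals, between 2.13 and 14.02, of 22080 genes with no detection call. The number of arrays limits the precision. Groups came from the sample labels (tissue, diet and pool letter).

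A single linear model, with a mean for each of the 15 groups, was run on the 45 arrays in limma 3.58.1 in R 4.3.3 (empirical Bayes, 7.34 prior and 30 residual degrees of freedom), with Benjamini-Hochberg adjustment over all genes in each contrast. A gene passed at an adjusted p of at most 0.05 and was differentially expressed, or called, if its log2 fold change also exceeded 0.7, as in the study's methods. The fit was tested on simulated data with independent arrays and 1 spread per gene in all groups. Those data held no mixed pool and no spread that differed between tissues, so neither was tested. Figures were drawn with matplotlib 3.10.9.

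The members, lists and tests were chosen with earlier results of these data known. Genes named are the 10 members, genes of the 4 pathway lists that passed in kidney, the extremes of each list, and the 5 highest and 5 lowest r with Cyp24a1. The liver and brain genes of the lists and the cerebellar markers were named after their values were seen.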

Additional observations from a re-analysis of the deposited data

Results flagged for a closer look

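The response of Cyp2r1 to Gl-2 differed between liver and brain. Relative to HCD, the HCD+Gl-2 mean was 0.57 lower in liver and 0.30 higher in brain, a difference between the responses of -0.87 ± 0.15 (SE, 95% interval -1.19 to -0.56, limma adjusted p = 0.0032), with all 3 arrays below HCD in liver and all 3 above it in brain. Over all genes 0.598% passed this test. The same difference was -0.50 with Gl-1 (95% interval -0.81 to -0.19, adjusted p = 0.16, brain step 0.32) and -0.55 with simvastatin (-0.87 to -0.24, adjusted p = 0.17), in the same direction without passing, and the 3 contrasts share the HCD arrays. This contrast was added after the values had been seen. The difference lay between -0.93 and -0.81 and stayed past the threshold under the 21 alternatives run, and the brain signal of Cyp2r1, from 4.42 to 5.19, was low on the scale of the arrays.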

How the results depend on the processing

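The 56 results were recomputed under the alternatives (other samples in the fit, pools A and B only, a replicate block, no dim genes, another normalization, trend and robust moderation, no fold threshold, each array left out), and 897 of 925 values kept their direction and their side of the threshold, or their size. The kidney differences of Cyp24a1 all kept their size: the difference between HCD and Control lay between -0.92 and -0.81, that between HCD+Gl-1 and HCD between 1.28 and 1.39. Only pools A and B alone, the other normalization and leaving out an array of the compared groups could move them. The remaining alternatives leave a difference of group means as it is, so part of the 897 kept values was fixed in advance. The pool letters did not pair the arrays by the rule that every pair correlates over 0.1: deviations of same-letter arrays from their group means did so in 3 of 30 kidney pairs (-0.29 to 0.20), 12 of 30 liver pairs (-0.13 to 0.27) and 7 of 30 brain pairs (-0.38 to 0.42). With the pool letter as a replicate block, over all arrays or within each tissue, no count changed. The differences themselves cannot change under such a block, since each group held 1 array of each letter. Without the fold threshold, the kidney counts of members changed only through Cyp24a1, whose values chose it, so no call is given for it. In liver 1 member was then called for HCD+Gl-2 and for HCD+Sim against HCD (Cyp2r1), and between liver and brain 7 rather than 3 were. Slc20a1 became 1 list gene called in kidney for HCD+Gl-2 against HCD+Sim, which it also was without pool B of HCD+Gl-2 (range 0 to 1). In brain, HCD against Control gave 1 called member (Calb1) with pools A and B only, without pool C of Control (range over left-out arrays 0 to 1), and without the pool C arrays of brain Control and HCD+Gl-2, an alternative chosen after seeing the data. The kidney minus brain difference of Calb1 reversed to -0.10 with pools A and B and to -0.087 without pool C of Control or without both those arrays, and passed at 0.53 without pool B of Control. Fitted on the groups compared alone, Cyp2r1 in liver no longer passed for Gl-2 (adjusted p = 0.11) or simvastatin (adjusted p = 0.41). In kidney, Calb1 passed in 3 comparisons with the kidney arrays alone, and Cyp2r1 in HCD+Gl-2 against Control passed with dim genes left out (adjusted p = 0.049, 14046 genes) and without the 2 brain arrays (0.039). The causes were not tested. With 3 arrays from 2 pools, small differences are beyond what these data can resolve.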
